A study of Mus musculus with 19 samples.

Results

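The genes examined were 10 regulators and markers of the epithelial-mesenchymal transition: the transcription factors Snai1, Snai2, Zeb1, Zeb2, Twist1 and Twist2, the cadherins Cdh1 and Cdh2, the intermediate filament gene Vim and the epithelial adhesion gene Epcam. They were chosen by symbol, each matched 1 Ensembl identifier, and all 10 were found among the 46078 genes of an RNA-seq table of 19 mouse libraries. The libraries came from mammary glands and mammary tumors of the HER2-positive MMTV-neu model. MG-WT was 3 glands of Wild Type, age-matched mice. MG-N was 4 glands of tumor-bearing mice with wild-type p53 in fibroblasts, where replicate 1 was MMTV-neu;Fsp-Cre and replicates 2 to 4 were MMTV-neu;p53wm-R172H/+ without Cre. MG-NP was 4 glands, and T-NP 4 tumors, of MMTV-neu;p53wm-R172H/+;Fsp-Cre mice, whose fibroblasts carry mutant p53. T-N was 4 tumors of MMTV-neu;Fsp-Cre mice. The MG-N and MG-NP glands were taken without malignant lesions from mice that had tumors elsewhere, so all groups but MG-WT share the neu transgene. MMTV drives neu in the mammary epithelium and Fsp-Cre drives Cre in fibroblasts. The MMTV-neu mice were of mixed FVB/C57/BALB/c background, the background of the Wild Type mice was not given in the sources used here, and ages at sampling were not given in the sources used here. The library names of T-NP replicates 1 and 2 share an animal number. The other libraries carry distinct numbers in their names and the study calls its replicates biological, but how numbers map to animals is not stated, so p-values measure the spread between these samples.

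In an epithelial-mesenchymal transition, epithelial cells lose their adherens and tight junctions and take up a motile, fibroblast-like state. The zinc finger factors of the Snail and Zeb families and the basic helix-loop-helix Twist factors drive this by binding E-boxes in the promoters of epithelial genes, Cdh1 above all, and repressing them, whereas the miR-200 microRNAs repress Zeb1 and Zeb2 in turn. In a normal mammary gland these same factors are transcribed in fibroblasts, endothelial cells and adipocyte-rich stroma, and Snai2 also in basal epithelium, so bulk tissue holds both sides of the switch in different cells.

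Of the 10 genes, 6 had an entry in RefSeq's promoter table (GRCm38.p6): Snai1, Zeb2, Twist1, Twist2, Vim and Epcam. No entry was used for Snai2, Zeb1, Cdh1 and Cdh2. The 6-base E-box CAGGTG or its reverse complement CACCTG, searched on both strands in the 250 bases before each start, was found once for Snai1 and at 2 places for Epcam. Of 32851 promoter windows of that length, 17.2% held at least 1 such E-box and 2.06% held at least 2. The Epcam window is shown because Epcam had the highest level per kilobase of the 10 genes in tumors and its window held the most E-boxes. It lies at chr17:87635729-87635978 on the plus strand, and capitals mark the E-boxes, 187 to 182 and 19 to 14 bases before the start. These matches are letters only and no binding was measured.
Epcam: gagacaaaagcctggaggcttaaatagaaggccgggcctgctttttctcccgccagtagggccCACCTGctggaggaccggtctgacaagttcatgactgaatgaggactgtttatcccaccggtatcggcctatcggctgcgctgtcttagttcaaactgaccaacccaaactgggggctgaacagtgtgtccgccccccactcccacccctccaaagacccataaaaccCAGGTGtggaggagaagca

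The mature miR-200 sequences are shown because they are the best-known repressors of Zeb1 and Zeb2 and fall into 2 groups by seed, the bases 2 to 8 in capitals. miR-200a and miR-141 share the seed AACACUG, and miR-200b, miR-200c and miR-429 share AAUACUG, which differs in a single base. RefSeq places Mir200a, Mir200b and Mir429 together on chromosome 4 and Mir200c and Mir141 together on chromosome 6.
miR-200a-3p: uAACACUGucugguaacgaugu
miR-141-3p: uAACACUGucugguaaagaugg
miR-200b-3p: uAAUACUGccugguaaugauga
miR-200c-3p: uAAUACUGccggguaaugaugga
miR-429-3p: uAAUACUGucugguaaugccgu

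Values are normalized counts, the reads on a gene divided by the authors' size factor for the library. The MG-WT libraries held 54677315 to 62645459 reads on genes and the other 16 libraries 20899152 to 27262440. The MG-WT glands stood apart from the others in makeup as well as depth. Summed over 9 white adipocyte markers they held 2106 to 3097 normalized counts, against 288993 to 394053 in MG-N and 140238 to 369426 in MG-NP, and none of these markers was at 3 reads or fewer throughout a group. Summed over 8 immediate-early genes they held 332000 to 433814, against 2135 to 10150 elsewhere. Skeletal muscle transcripts summed to 12401 to 2970944 in MG-NP and at most 18219 in MG-N. Epithelial markers were present in all groups, and 9 luminal genes summed to 125123 to 137782 in MG-WT, 11517 to 33901 in the other glands and 55845 to 135789 in tumors. In these bulk samples fewer cells of a type and less RNA per cell cannot be told apart, and how far cell makeup contributes to any result here was not tested unless a value says so. Genes were tested with limma on log2(normalized count + 1), with Benjamini-Hochberg adjustment over all genes tested in a comparison, and called at an adjusted p under 0.05.

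The question of the first comparison was how tumors differ from glands with the same p53 state in fibroblasts. The T-N tumors all carried Fsp-Cre, whereas MG-N replicates 2 to 4 carried p53wm-R172H/+ without Cre. In T-N against MG-N, tissue and these alleles are therefore not fully separated. Both epithelial adhesion genes were higher in tumors and most of the transcription factors were far lower. In T-N against MG-N, 7 of the 10 genes were called, where 51.3% of all 17950 genes tested were called: 2 were higher (23.5% of all genes) and 5 lower (27.8%). In T-NP against MG-NP 8 of the 10 were called, where 55.5% of 17880 were: 2 higher (26.2%) and 6 lower (29.3%). Cdh1 and Epcam rose, and Snai2, Zeb1, Zeb2, Twist1 and Twist2 fell, in both comparisons, and Vim fell in T-NP against MG-NP. Since more than 1 gene in every 2 was called, these counts do not set the 10 genes apart, and the sizes below carry the description. Over the 10 genes the median log2 difference was -2.11 in T-N against MG-N and -2.23 in T-NP against MG-NP, beside -0.05 and -0.07 over all genes tested.

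**Figure D1:**
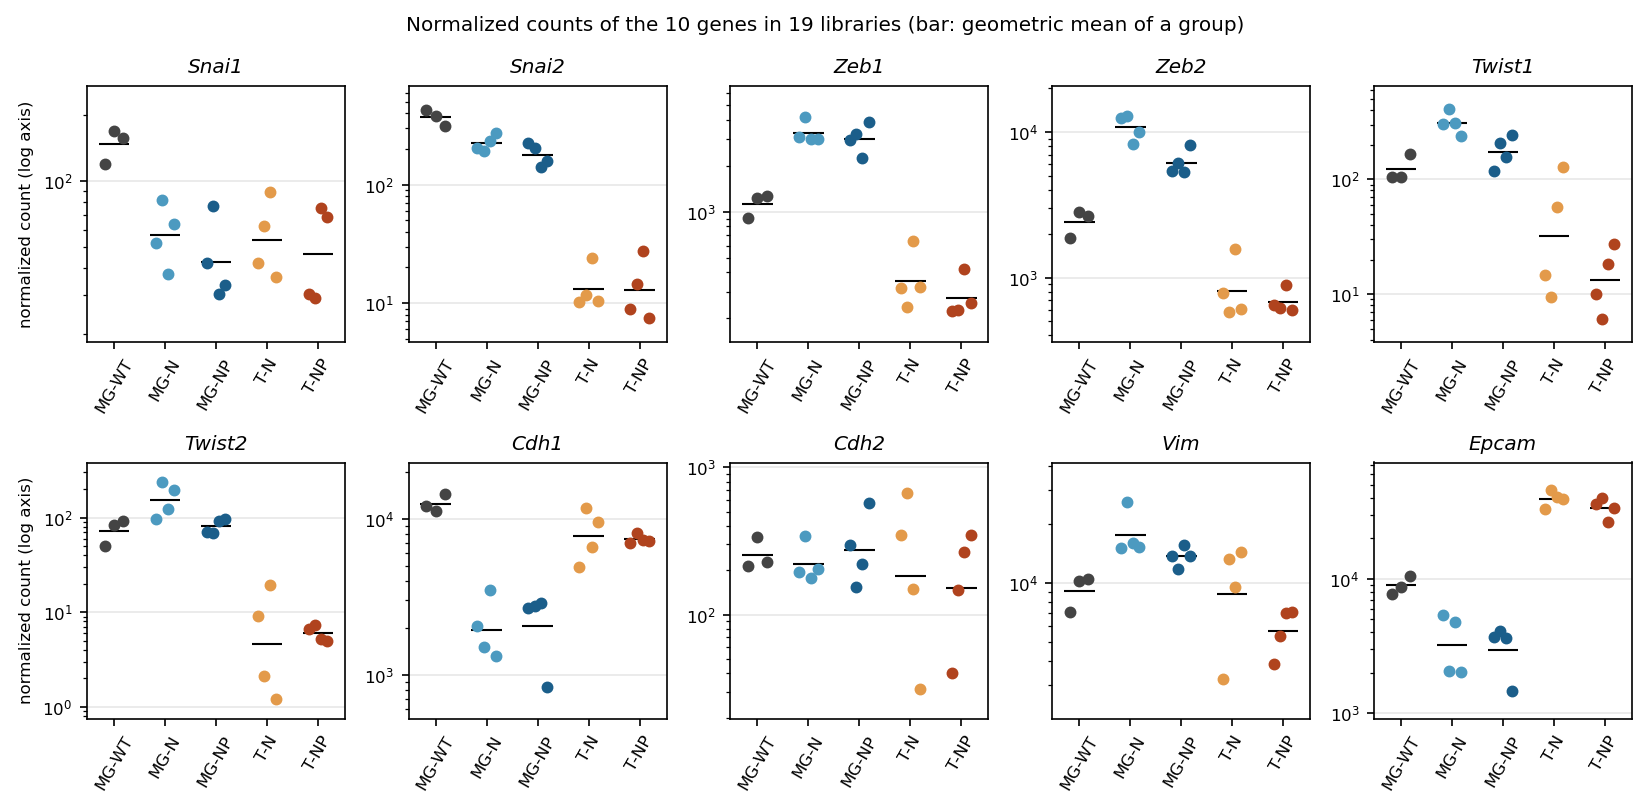
Normalized counts (log axis) of the 10 genes in each of the 19 libraries, with 1 point a library and a bar at the geometric mean of each group. Epcam sits between 26505.9 and 45955.5 in all 8 tumors and at most 10566.0 in all 11 glands, whereas Snai2, Zeb1, Zeb2 and Twist2 are lower in every tumor than in every gland.

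Zeb1 encodes a zinc finger homeodomain repressor (chr18, 5591860 to 5775467, plus strand, GRCm38). It read 3063.2, 4142.1, 2968.6 and 2986.6 in MG-N replicates 1 to 4 and 2939.5, 3233.0, 2234.5 and 3835.2 in MG-NP. In tumors it read 317.0, 237.1, 641.3 and 322.1 in T-N and 224.2, 226.9, 420.8 and 253.5 in T-NP. No tumor value reached the lowest gland value. Zeb1 fell by 3.20 on the log2 scale (SE 0.29) in T-N against MG-N, 9.2-fold, with an adjusted p of 0.000109 by limma. It fell by 3.46 (SE 0.24) in T-NP against MG-NP, 11-fold, with an adjusted p of 2.06e-05 by limma. A transcript annotated on the opposite strand, Gm10125, reached 54.5% of the Zeb1 count in 1 library, and whether counting used strand was not given in the sources used here.

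Zeb2, its close relative (chr2, 44983632 to 45117395, minus strand), is a repressor of the same zinc finger homeodomain family. It read 12539.5, 12990.6, 8345.0 and 10019.7 in MG-N against 780.5, 576.3, 1562.3 and 610.4 in T-N. It read 5423.2, 6174.9, 5335.5 and 8150.7 in MG-NP against 652.5, 613.6, 889.7 and 599.3 in T-NP. No tumor came near an MG-N or MG-NP gland. Zeb2 fell by 3.74 (SE 0.31), 13.3-fold, in T-N with an adjusted p of 8.47e-05 and by 3.18 (SE 0.18), 9.08-fold, in T-NP with an adjusted p of 9.14e-06, both by limma.

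Snai2 encodes Slug (chr16, 14705852 to 14709385, plus strand), a Snail-family repressor known for its expression in basal mammary cells. Its values in MG-N were 202.5, 191.9, 232.9 and 275.0, and in T-N 10.2, 11.6, 24.2 and 10.5. In MG-NP they were 225.1, 204.1, 141.9 and 158.8, and in T-NP 9.0, 14.6, 27.3 and 7.5. Every tumor was below every gland, and Snai2 fell by 3.98 (SE 0.33), 15.8-fold, in T-N and by 3.70 (SE 0.41), 13.0-fold, in T-NP, with adjusted p of 8.19e-05 and 0.000148 by limma. Basal epithelial markers moved with it: 6 of 6 fell in T-N and 5 of 6 in T-NP, and their sum was 258 to 2044 in tumors against 5856 to 15556 in MG-N and MG-NP. The part of basal cells in the Snai2 difference was not tested.

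Snai1, which encodes Snail (chr2, 167538195 to 167542814, plus strand), was not called in either comparison. It read 52.2, 81.6, 37.6 and 63.9 in MG-N and 42.0, 62.2, 88.9 and 36.2 in T-N. It read 42.0, 77.1, 30.3 and 33.6 in MG-NP and 30.3, 29.3, 75.3 and 68.7 in T-NP. Glands and tumors overlapped throughout, with log2 differences of -0.07 (95% interval -0.92 to 0.79) in T-N and 0.12 (-0.89 to 1.13) in T-NP.

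Twist1 (chr12, 33957671 to 33959829, plus strand) and Twist2 (chr1, 91801461 to 91848028, plus strand) encode related basic helix-loop-helix factors of mesenchyme. Twist1 read 304.4, 406.9, 308.0 and 237.9 in MG-N and 14.8, 9.5, 57.6 and 128.4 in T-N. In MG-NP it read 118.3, 205.5, 156.0 and 242.8, and in T-NP 10.1, 6.1, 18.2 and 27.5. T-N tumors thus spread over more than 10-fold, with replicates 3 and 4 above the others. Every T-N tumor stayed below every MG-N gland, and every T-NP tumor below every MG-NP gland. Against MG-WT, which read 104.1 to 166.4, T-N overlapped through replicate 4, and every T-NP tumor was lower. Twist1 fell in both, with log2 differences of -3.21 (SE 0.73) in T-N and -3.605 (SE 0.46) in T-NP and adjusted p of 0.00649 and 0.000316 by limma. Twist2 read 96.8, 239.1, 124.0 and 195.7 in MG-N and 9.1, 2.1, 19.2 and 1.2 in T-N. In MG-NP it read 70.6, 68.5, 93.1 and 96.8, and in T-NP 6.7, 7.3, 5.2 and 5.0. It was the lowest of the 10 genes per kilobase of exon in every group but MG-N. Twist2 fell in both as well, with log2 differences of -4.67 (SE 0.71) in T-N and -3.56 (SE 0.28) in T-NP and adjusted p of 0.000933 and 3.06e-05 by limma. Since T-N replicates 2 and 4 lay at or under 3 reads, the T-N difference moved to -3.85 with a pseudocount of 5. Gm29101, a sense intronic transcript within Twist2, held 0.0 to 86.2 normalized counts and in 1 library as many as Twist2 itself, so the split of reads between them is uncertain.

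Cdh1 encodes E-cadherin (chr8, 106603351 to 106670246, plus strand), the calcium-dependent adhesion molecule of epithelial adherens junctions. It read 2051.9, 1514.8, 3479.4 and 1325.5 in MG-N and 4892.2, 11767.0, 6590.3 and 9480.2 in T-N. It read 2685.8, 2753.4, 2884.4 and 838.1 in MG-NP and 7021.8, 8075.7, 7320.4 and 7257.8 in T-NP. All tumors exceeded all MG-N and MG-NP glands, but the T-NP tumors were tight (SD 456.0) and the T-N tumors were not (SD 3050.0). The tumors did not stand above MG-WT, which read 11190.2 to 14367.9: every T-NP tumor was below every MG-WT gland, and T-N overlapped them. Cdh1 rose by 1.99 (SE 0.36), 3.98-fold, in T-N and by 1.85 (SE 0.37), 3.6-fold, in T-NP, with adjusted p of 0.00208 and 0.00317 by limma. With the skeletal muscle score as a covariate the T-NP difference was 1.34 with an adjusted p of 0.143. Muscle sums did not overlap between MG-NP, at 12401 or more, and T-NP, at 6878 or less, so that fit separates score from group poorly.

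Epcam encodes a homophilic adhesion protein of epithelia (chr17, 87635979 to 87651129, plus strand). It read 5401.7, 2052.7, 4785.7 and 2026.8 in MG-N and 33074.3, 45955.5, 40895.2 and 39187.2 in T-N. It read 3684.4, 4059.5, 3612.2 and 1457.9 in MG-NP and 36259.5, 39945.2, 26505.9 and 33425.0 in T-NP. Tumors and glands were far apart, and Epcam rose by 3.62 (SE 0.34), 12.3-fold, in T-N and by 3.50 (SE 0.32), 11.3-fold, in T-NP, with adjusted p of 0.000138 and 6.27e-05 by limma.

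Cdh2 encodes N-cadherin (chr18, 16588877 to 16809246, minus strand), which replaces E-cadherin in the textbook cadherin switch. Its values were 193.6, 343.6, 177.5 and 202.9 in MG-N and 344.3, 673.3, 148.4 and 31.5 in T-N. They were 296.6, 154.2, 219.9 and 569.5 in MG-NP and 40.4, 146.4, 266.3 and 344.6 in T-NP. Tumors of one genotype differed among themselves by more than the group means did, and no direction was called: -0.28 (95% interval -2.13 to 1.58) in T-N and -0.84 (-2.37 to 0.69) in T-NP.

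Vim (chr2, 13573927 to 13582826, plus strand) encodes vimentin, the intermediate filament of mesenchymal cells. It read 15163.4, 25977.7, 16135.9 and 15316.4 in MG-N and 3225.5, 13234.8, 9561.3 and 14506.9 in T-N. It read 13850.8, 11858.8, 15708.5 and 13802.7 in MG-NP and 3847.8, 5360.2, 7002.2 and 7100.5 in T-NP. All T-NP tumors were below all MG-NP glands, and Vim fell by 1.28 (SE 0.21), 2.43-fold, with an adjusted p of 0.00117 by limma. With the skeletal muscle score as a covariate the same difference was -1.08 with an adjusted p of 0.0617, in a fit that, as for Cdh1, separates score from group poorly. In T-N against MG-N the difference was -1.01 (SE 0.45) with an adjusted p of 0.092, and an adjusted p of 0.0242 when all 5 groups shared a limma fit. The T-N and MG-N values of Vim did not overlap either. Against MG-WT, which read 7137.3 to 10484.4, T-N overlapped and every T-NP tumor was lower. In all, 8 of the 10 genes did not overlap between tumor and gland in T-N against MG-N, where 49.2% of all genes did not, and 8 in T-NP against MG-NP, where 52.6% did not.

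Other markers moved in the same comparisons. The luminal list, a reference for Cdh1 below, was split: of 9 genes 4 rose and 3 fell in T-N, and 5 rose and 2 fell in T-NP. Of 8 macrophage markers 1 rose and 3 fell in T-N, and 1 rose and 2 fell in T-NP. Of 8 fibroblast markers 6 fell in T-N and 5 in T-NP, all 8 endothelial and all 9 white adipocyte markers fell in both, and of 5 T cell markers all fell in both. Of 5 B cell markers 4 fell in T-N and 5 in T-NP. All 12 skeletal muscle markers fell in T-NP against MG-NP, with a median log2 difference of -7.65, and 0 of 12 were called in T-N against MG-N. Summed fibroblast markers were 147275 to 492754 in MG-N, 68299 to 154968 in MG-NP, 30016 to 271282 in T-N and 27748 to 57698 in T-NP, and no marker of that list was at 3 reads or fewer throughout a group. The tumor with the most fibroblast transcripts in each tumor group, T-N replicate 3 at 271282 and T-NP replicate 3 at 57698, was also the highest of its group for Snai1, Snai2, Zeb1 and Zeb2, and in T-N for Twist2. It was not for Twist1 and Vim, which were highest in replicate 4 of both tumor groups, nor in T-NP for Twist2, highest in replicate 2. The part of fibroblast content in these values was not tested. Summed endothelial markers were 16984 to 32964 in MG-N and MG-NP and 3233 to 5636 in tumors.

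**Figure D2:**
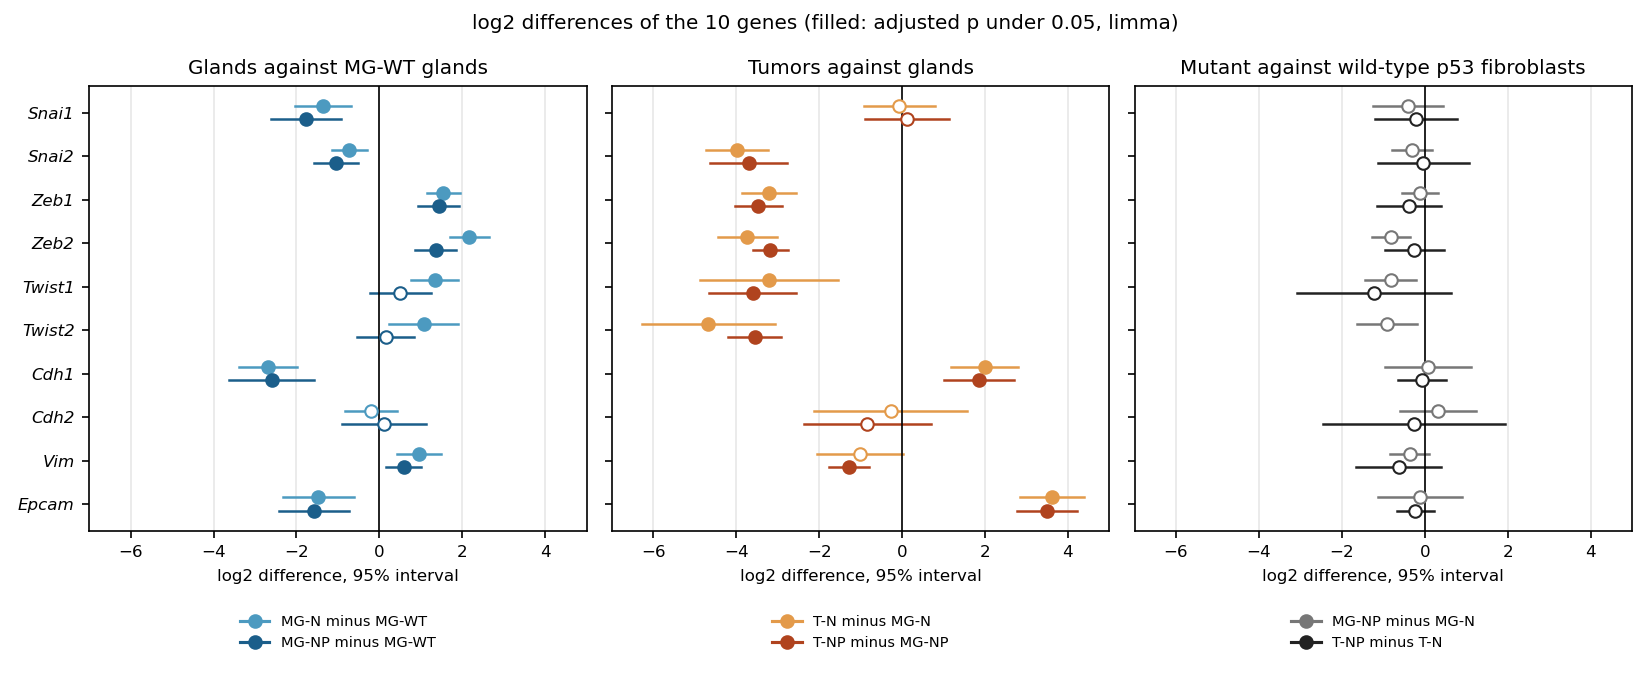
Fitted log2 differences (x axis) of the 10 genes with their 95% intervals, in 3 panels: glands against MG-WT, tumors against glands, and mutant against wild-type p53 in fibroblasts. Filled points passed an adjusted p under 0.05 by limma. Tumor-gland differences range from -4.67 for Twist2 to 3.62 for Epcam, and every point of the right panel is open.

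Set against other transcripts of the same library, the size and even the sign of these differences depended on the transcripts chosen. Cdh1 minus the mean of 9 luminal genes, on the log2 scale, averaged 0.54 in MG-N and 2.33 in T-N, and 0.50 in MG-NP and 1.97 in T-NP, with no overlap between tumor and gland. The changes of 1.79 and 1.47 each had a two-sided exact permutation p of 0.02857, the smallest that 4 against 4 allows, and an adjusted p of 0.098 over 24 such tests. Against the mean of Krt8 and Krt18 alone, the keratins of luminal cells, the same changes were -0.79 and -0.98. Vim minus the mean of 8 fibroblast genes was higher by 1.01 in T-NP than in MG-NP (two-sided exact permutation p = 0.02857, adjusted p = 0.098) and by 2.00 in T-N than in MG-N (p = 0.05714, adjusted p = 0.1247, exact permutation). In T-N this difference was 3.79 and 3.53 in replicates 2 and 4 but 0.68 and 0.29 in replicates 1 and 3. Against Col1a1 and Col1a2 alone the changes of Vim were -1.39 and -0.46.

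Zeb1 minus the same 8 fibroblast genes averaged -1.36 in MG-NP and -2.53 in T-NP, a change of -1.17 (two-sided exact permutation p = 0.02857, adjusted p = 0.098), and it changed by -0.19 in T-N against MG-N (exact permutation p = 0.7143). Against Col1a1 and Col1a2 alone Zeb1 averaged -2.90 in MG-N and -5.55 in T-N, and -1.66 in MG-NP and -5.23 in T-NP. Cdh2 minus Cdh1 compares transcripts that in bulk tissue can come from different cells. It was -2.90 ± 1.61 (SD, n = 4) in MG-NP and -5.59 ± 1.35 in T-NP, a change of -2.69 (exact permutation p = 0.02857, adjusted p = 0.098). In T-N against MG-N it changed by -2.27 (exact permutation p = 0.08571, adjusted p = 0.1714). None of the 24 tests passed an adjusted p of 0.05. At these group sizes none could pass unless many of the 24 reached 0.02857 at once, so the adjusted values cannot decide whether the differences are absent.

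**Figure D3:**
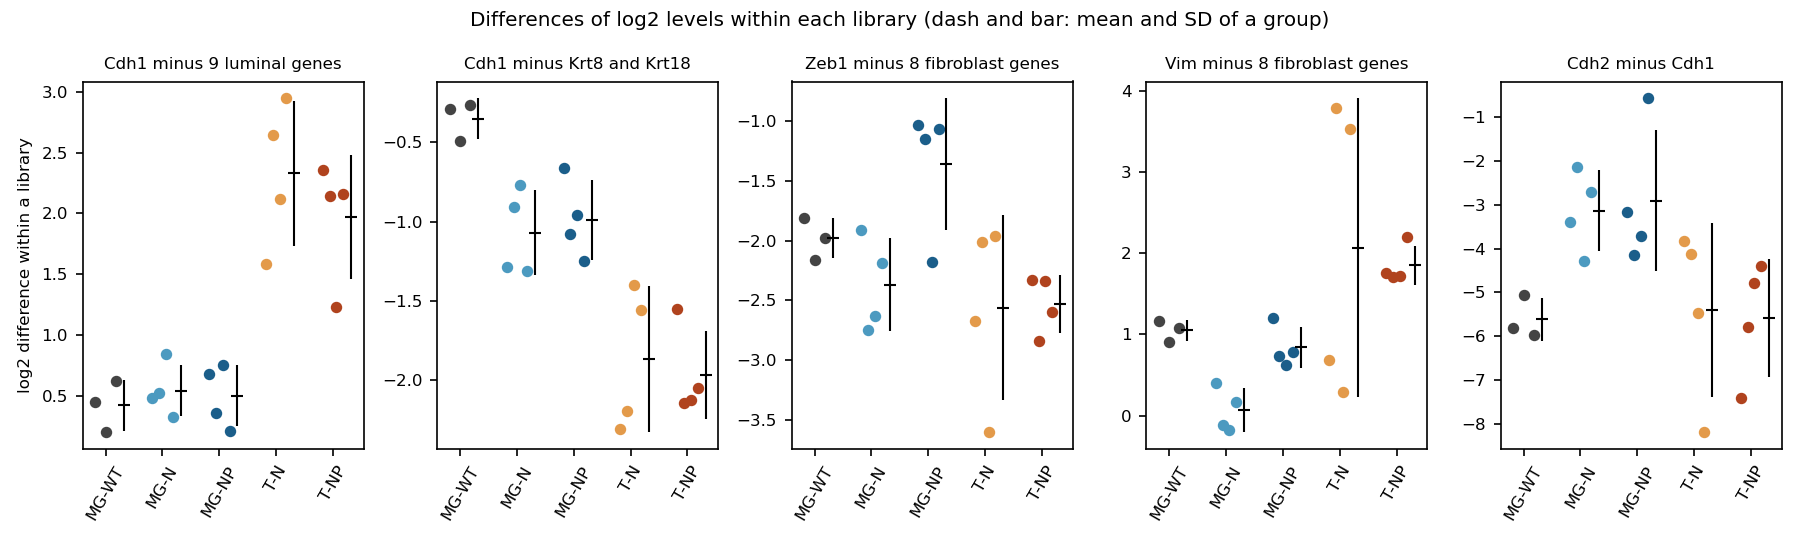
Differences of log2 levels within each library (y axis, log2 units) for 5 pairings, with 1 point a library and the mean and SD of each group beside the points. Cdh1 lies above 9 luminal genes by 1.23 to 2.95 in tumors and 0.20 to 0.84 in glands, but against Krt8 and Krt18 the tumors lie lowest, at -2.31 to -1.40.

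Genes that act with or against the 10 were read from 6 lists, whose counts stand beside the shares of all genes called higher and lower, 23.5% and 27.8% in T-N against MG-N and 26.2% and 29.3% in T-NP against MG-NP. Of 8 epithelial regulators, 7 were tested in T-N against MG-N and all 7 rose, and all 8 rose in T-NP against MG-NP, with median log2 differences of 2.35 and 2.37. They include Ovol1 and Ovol2, zinc finger repressors known to hold Zeb1 down, which rose by 2.72 and 2.48 in T-N and 2.37 and 2.37 in T-NP. Esrp1 and Esrp2, the epithelial splicing regulators, rose by 1.99 and 2.61 in T-N and by 2.57 and 2.18 in T-NP. Grhl1, a grainyhead factor, rose by 1.36 and 2.42.

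Of 28 epithelial junction genes, 21 rose and 1 fell in T-N, and 22 rose and 0 fell in T-NP. The claudins Cldn1 and Cldn3, which seal tight junctions, rose by 3.78 and 3.48 in T-N and by 3.24 and 3.48 in T-NP. Rab25, a small GTPase of epithelial recycling, rose by 3.65 and 3.40, and Dsc2, a desmosomal cadherin, by 3.11 and 3.54. Pkp1, a desmosomal plakophilin of stratified epithelium, was the gene that fell in T-N (-0.78, adjusted p 0.0427 by limma), and differed by 0.33 in T-NP.

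The other cadherins of the list went the opposite way from Cdh1. Cdh19, a cadherin placed in the Schwann cell list instead, did not. It read 419.0 to 2359.0 in T-N against 153.5 to 475.1 in MG-N. In T-NP it read 305.2 to 1414.6 against 124.9 to 293.1 in MG-NP. Of 6 in the list tested in T-N 5 fell, and of 5 tested in T-NP 4 fell, with none higher. The log2 differences in T-N and T-NP were -1.93 and -1.84 for Cdh5, the cadherin of endothelium, and -2.38 and -2.46 for Cdh13 (T-cadherin). For Cdh4 (R-cadherin), at means of 4.923 and 6.325 normalized counts in tumors, they were -2.99 and -3.06. Cdh6 fell by 2.39 in T-N, from a mean of 15.17 to 2.878, and was too low to be tested in T-NP. Among 8 catenins and linkers tested, 4 rose in each comparison, with 1 lower in T-N and 2 in T-NP. Jup (plakoglobin) rose by 1.59 and 1.66, Ctnna1 by 1.01 and 1.14 and Ctnnb1 (beta-catenin) by 0.90 and 1.10, whereas Ctnna3, the alpha-catenin of muscle, fell, at -4.13 and -4.67. Ctnna3 was low in tumors, at means of 5.147 in T-N and 7.026 in T-NP, and ranged from 55.2 to 481.0 in MG-NP. Vcl fell by 0.46 in T-NP.

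The mesenchymal list was mixed. Of 24 genes tested in T-N 4 rose and 11 fell, and of 23 in T-NP 3 rose and 11 fell. Among those that fell in both, log2 differences in T-N and T-NP were -3.29 and -3.25 for Prrx1, a mesenchymal homeobox factor, -3.14 and -2.35 for Fap, a protease of activated fibroblasts, and -2.49 and -2.63 for the matrix protease Mmp2. Foxc1, a forkhead factor, rose by 2.31 and 1.66 and the integrin subunit Itgav by 0.68 and 0.57. Tnc, a matrix glycoprotein, rose by 2.23 in T-N and differed by 0.88 in T-NP with an adjusted p of 0.064 by limma. S100a4, the gene of the Fsp promoter, had means of 28.85 in MG-N and 4.899 in T-N and fell by 3.16 there. By limma no gene of the 6 lists was called between MG-NP and MG-N, where 0 of 18563 genes tested were. None was called between T-NP and T-N either, where 0.0421% of 16638 genes were. Since almost no gene was called at all, these counts do not set the lists apart.

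Of the 5 miR-200 family genes, 2 could be tested and both rose. The hairpin gene Mir200a read 24.2, 19.5, 47.9 and 30.9 in MG-N and 195.4, 82.2, 66.7 and 59.5 in T-N. It read 27.7, 57.1, 63.9 and 9.0 in MG-NP and 99.8, 128.1, 159.8 and 93.6 in T-NP. All T-N tumors exceeded all MG-N glands, and all T-NP tumors exceeded all MG-NP glands. Mir141 had means of 4.983 in MG-N and 25.05 in T-N, and of 3.941 in MG-NP and 23.83 in T-NP. Mir200a rose by 1.59 and 1.88 and Mir141 by 2.17 and 2.62, with adjusted p of 0.0166, 0.0215, 0.00281 and 0.00728 by limma. Mir429 was at 0 in every library, and at such low counts from libraries of long RNA these values describe reads on the hairpin loci and not the mature sequences shown above.

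**Figure D4:**
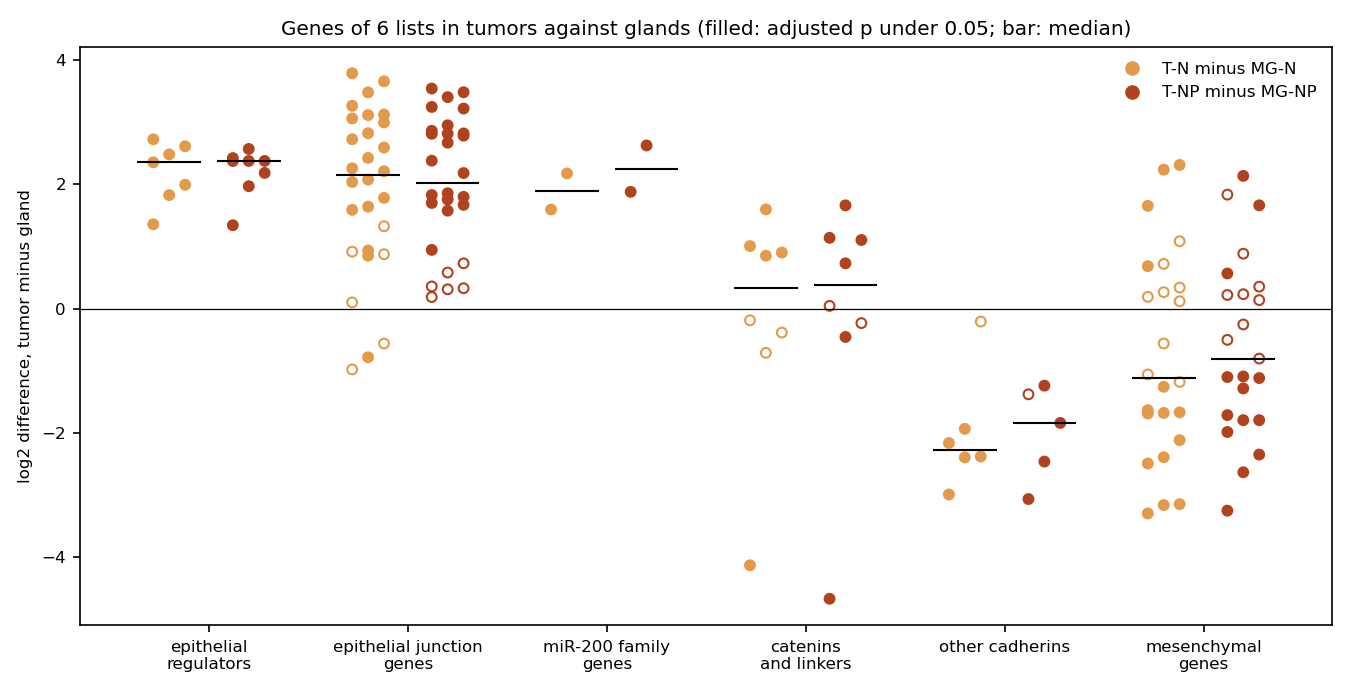
Fitted log2 differences (y axis) of the genes of 6 lists in T-N minus MG-N and T-NP minus MG-NP, with 1 point a gene, filled where the adjusted p was under 0.05 by limma, and a bar at each median. All epithelial regulators lie above 0, at medians of 2.35 and 2.37, and the other cadherins lie below 0, at -2.27 and -1.84.

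The comparison with MG-WT asked how glands of tumor-bearing mice differ from normal glands. In MG-N 9 of the 10 genes were called, where 59.1% of 19017 genes tested were: 5 were higher (30% of all genes) and 4 lower (29.2%). In MG-NP 7 were called, where 46.4% of 19065 were: 3 higher (22.4%) and 4 lower (24%). Zeb1, Zeb2 and Vim were higher, and Snai1, Snai2, Cdh1 and Epcam lower, in both. The 2 comparisons share the MG-WT glands, which differ from the rest in depth, adipocyte and immediate-early transcripts, so these properties and the genotype cannot be told apart.

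Cdh1 read 12098.4, 11190.2 and 14367.9 in MG-WT, above every MG-N and MG-NP gland. It fell by 2.68 (SE 0.31), 6.41-fold, in MG-N and by 2.60 (SE 0.44), 6.07-fold, in MG-NP, with adjusted p of 0.00018 and 0.00305 by limma. Epcam read 7748.4, 8705.3 and 10566.0 in MG-WT and fell by 1.47 (SE 0.37) and 1.58 (SE 0.36), with adjusted p of 0.00965 and 0.0101 by limma. The 9 luminal and 6 basal markers all fell as well in both comparisons. Cdh1 minus the 9 luminal genes differed by 0.12 in MG-N and 0.08 in MG-NP from MG-WT, less than the spread within groups (two-sided exact permutation p = 0.4857 and 0.6857). Against Krt8 and Krt18 alone it averaged -0.35 in MG-WT, -1.07 in MG-N and -0.99 in MG-NP, so this reading too depended on the reference.

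Zeb2 read 1861.9, 2820.7 and 2635.2 in MG-WT, below every MG-N and MG-NP gland and above every tumor. It rose by 2.17 (SE 0.20) in MG-N and 1.36 (SE 0.21) in MG-NP, with adjusted p of 6.54e-05 and 0.00225 by limma. Zeb1 read 902.4, 1220.3 and 1257.1 in MG-WT and rose by 1.55 (SE 0.17) and 1.43 (SE 0.21), with adjusted p of 0.000143 and 0.00199. Summed fibroblast markers were 41088 to 67635 in MG-WT, lower than in all MG-N and MG-NP glands, and 5 of 8 of them rose in MG-N and 3 of 8 in MG-NP.

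Snai1 was highest in MG-WT, at 120.3, 170.3 and 157.1, and fell by 1.37 (SE 0.29) in MG-N and 1.77 (SE 0.36) in MG-NP, with adjusted p of 0.00435 and 0.00681 by limma. Snai2 read 425.6, 382.2 and 310.0 in MG-WT and fell by 0.72 (SE 0.18) and 1.04 (SE 0.23), with adjusted p of 0.00984 and 0.00896. With all 5 groups in 1 fit the Snai2 difference in MG-N had an adjusted p of 0.123. Both Snail-family genes were above every other gland, the reverse of the Zeb genes. Vim read 7137.3, 10221.8 and 10484.4 in MG-WT and was higher by 0.95 (SE 0.23) in MG-N and 0.59 (SE 0.18) in MG-NP, with adjusted p of 0.00773 and 0.0313. With all 5 groups in 1 fit the MG-N difference had an adjusted p of 0.0522. Set against the 8 fibroblast genes of the same library, Vim went the other way: it averaged 1.05 in MG-WT and 0.07 in MG-N, with no overlap (two-sided exact permutation p = 0.02857, adjusted p = 0.098), while against Col1a1 and Col1a2 alone it averaged -0.34 and -0.46. The call in MG-NP rests on single libraries: without MG-WT replicate 1 the difference was 0.41 with an adjusted p of 0.113, without MG-WT replicate 2 the adjusted p was 0.0534, and without MG-NP replicates 1, 3 or 4 it was 0.0603, 0.0575 or 0.0535. With replicate number as a block in the fit it was 0.0774.

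Twist1 read 104.1, 104.9 and 166.4 in MG-WT, and rose by 1.33 (SE 0.25) in MG-N with an adjusted p of 0.00204 by limma, and of 0.106 with all 5 groups in 1 fit. In MG-NP it differed by 0.51 (95% interval -0.23 to 1.25). Twist2 read 50.3, 83.5 and 92.0 in MG-WT and rose by 1.07 (SE 0.36) in MG-N with an adjusted p of 0.0328, and of 0.135 with all 5 groups in 1 fit. Leaving out 1 library ended that call for MG-WT replicate 1 (adjusted p 0.123), MG-WT replicate 2 (0.0574), MG-N replicate 2 (0.0679) and MG-N replicate 4 (0.0729). Cdh2 read 212.8, 336.3 and 228.4 in MG-WT and was not called in either comparison, at -0.20 (95% interval -0.82 to 0.43) and 0.12 (-0.90 to 1.13). With the skeletal muscle score as a covariate none of the 7 genes called in MG-NP against MG-WT passed, at adjusted p of 0.0648 to 0.542 by limma, although the differences did not vanish. Those of Snai1, Snai2 and Vim grew to -2.97, -1.59 and 1.04, and those of Zeb1, Zeb2, Cdh1 and Epcam shrank to 0.49, 0.79, -1.42 and -0.90. Summed muscle markers did not overlap, at 117 to 131 in MG-WT and 12401 to 2970944 in MG-NP. Score and group are hardly separable in that fit, so it cannot decide on a part of muscle content. Values of 9 of the 10 genes did not overlap between MG-N and MG-WT, where 61.3% of all genes did not, and 7 between MG-NP and MG-WT, where 54.4% did not.

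The question central to the design was whether mutant p53 in fibroblasts changed the glands or the tumors. Between MG-NP and MG-N, 0 of the 10 genes and 0 of the 18563 genes tested were called by limma, a share of 0%, with 3 of the 10 and 1950 of all genes at an unadjusted p under 0.05. On the recovered reads edgeR called 0 genes, and DESeq2 called 473 higher and 257 lower, among them 1 of the 10, Zeb2. Zeb2 was also the only one of the 10 whose groups did not overlap, where 6.21% of all genes did not: the highest MG-NP gland, at 8150.7, lay under the lowest MG-N gland, at 8345.0. Its log2 difference was -0.81 (95% interval -1.26 to -0.35), with an unadjusted p of 0.00336 and an adjusted p of 0.318 by limma, and -0.77 with an adjusted p of 0.0304 by DESeq2. Both Twist genes had a like size of difference, -0.82 (-1.43 to -0.21) for Twist1 and -0.91 (-1.64 to -0.19) for Twist2, with adjusted p of 0.348 and 0.368 by limma. Zeb1 differed by -0.12 (-0.55 to 0.32), Cdh1 by 0.08 (-0.97 to 1.13) and Epcam by -0.11 (-1.13 to 0.90). The fibroblast markers, of which 0 of 8 were called, had a median difference of -1.19, and Vim minus those markers was higher in MG-NP in all 4 glands than in any MG-N gland, by 0.77 (two-sided exact permutation p = 0.02857, adjusted p = 0.098). Median differences were 6.28 for the 12 skeletal muscle markers and -0.83 for the 9 white adipocyte markers, with 0 called in either list. The part of cell makeup in the Zeb2 difference was not tested. The MG-N glands differ in genotype among themselves, and 3 of the 4 lacked Cre.

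In T-NP against T-N, 0 of the 9 genes tested were called, where 0.0421% of 16638 genes were. At an unadjusted p under 0.05 there were 0 of the 9 and 1210 of all genes, and on the recovered reads edgeR called 0 genes and DESeq2 80 higher and 40 lower, none of the 9 among them. Twist2 was too low to be tested. Cdh1 differed by -0.06 (95% interval -0.64 to 0.51) and Epcam by -0.23 (-0.67 to 0.21). Intervals were wide for Cdh2 (-2.45 to 1.95), Twist1 (-3.07 to 0.64) and Vim (-1.66 to 0.40). No gene of the 9 was without overlap between T-N and T-NP, where 4.21% of all genes were. With T-NP replicates 1 and 2 averaged, 0 of the 9 were called again, and T-NP against MG-NP again gave 8 calls.

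The difference of the tumor-gland differences between the genotypes was called for 0 of the 10 genes and 0 of 19367 genes tested by limma, a share of 0%, with 0 of the 10 and 1536 of all genes at an unadjusted p under 0.05, while edgeR called 0 genes and DESeq2 83 higher and 285 lower, none of the 10 among them. Its sizes ran from -0.56 for Cdh2 (95% interval -2.98 to 1.85) to 1.11 for Twist2 (-0.57 to 2.80). The call of Vim in T-NP against MG-NP and not in T-N against MG-N is therefore not shown to be a difference between genotypes (-0.27, -1.40 to 0.86).

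Levels were compared between genes per kilobase of exon. In tumors Epcam led, at 18100.0 ± 2420.0 normalized counts per kilobase in T-N and 15500.0 ± 2590.0 in T-NP (SD, n = 4 each). Vim followed in T-N at 2140.0 ± 1070.0 and overlapped Cdh1 at 1790.0 ± 667.0, whereas in T-NP Cdh1 at 1620.0 ± 99.8 stood above Vim at 1230.0 ± 325.0. In MG-N and MG-NP Vim led at 3830.0 ± 1100.0 and 2910.0 ± 331.0, above Epcam at 1620.0 ± 811.0 and 1460.0 ± 538.0. In MG-WT the order was Epcam, Cdh1, Vim at 4100.0 ± 653.0, 2740.0 ± 358.0 and 1960.0 ± 392.0 (n = 3), each apart from the next. Of the transcription factors Zeb2 had the highest mean per kilobase in every group but MG-WT, where Snai2 did, at 184.0 ± 28.9. Zeb2 overlapped Zeb1 in MG-NP, and its next neighbours in the order in both tumor groups. In T-N Zeb2, Zeb1, Snai1 and Twist1 ranged from 32.3 to 44.2 per kilobase, and each overlapped its neighbour in the order.

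Across the groups, Zeb2 alone of the 10 genes put MG-N, MG-NP, MG-WT and the tumors at levels that did not overlap from step to step, at means of 10970.0, 6271.0, 2439.0 and, for T-N and T-NP, which overlapped, 882.4 and 688.8. The share of all genes with such steps was not counted, so this does not set Zeb2 apart from genes at large. For Cdh2 all 5 groups overlapped, at means of 199.4 to 310.0. The genes whose log2 values followed Cdh1 most closely over the 19 libraries, among 14831 genes, were Grhl2 (Pearson r = 0.976), Ptprk (0.974), Map2 (0.968) and Ccdc120 (0.968). Those closest to Zeb1 were Itga7 (0.990), Lama2 (0.988), Fmo1 (0.986), Atp2b4 (0.985) and Ptprm (0.985). For Cdh2 the highest were lower, with Picalm at 0.740, Nxpe2 at 0.739 and Nxpe4 at 0.703. These are descriptions over libraries that fall into tumors and glands, and without the 3 MG-WT libraries the first genes were Ptprm for Zeb1 (0.995) and Picalm for Cdh2 (0.764), and Grhl2 and Cdh1 had a correlation of 0.979.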

How the data were processed

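RNA was sequenced from mammary glands and tumors of 19 mouse samples, grouped by the sample titles. By the study's methods reads were paired, read on a HiSeq and aligned to GRCm38 with TopHat2 (2.1.1 per the submitters' processing notes) and Bowtie2. The counter, annotation and strand setting were not given in the sources used here, and the labels name a total RNA kit where the methods name an mRNA kit. The signal values deposited by the authors are gene counts divided by DESeq2 size factors, in a single table of 46078 genes, so that scaling is part of every value. Reads recovered from the step of each library were whole (tolerance 0.05 reads) for 100.0% of values. Size factors were 0.7006 to 1.0648 in all groups but MG-WT, where they were 1.9354 to 2.3449. The factor of the T-N library of replicate 3 (0.9902) is near that of unscaled data.

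Symbols, positions and exon lengths came from GENCODE vM21, which matched 98.16% of identifiers. The 10 genes and all lists were chosen with earlier results of these data known. Log2(normalized count + 1) was fitted with limma 3.58.1 (trend) for the 2 groups compared, on genes with at least 10 normalized counts in as many samples as the smaller group, with Benjamini-Hochberg adjustment over all of them and a cutoff of 0.05. edgeR 4.0.16 (quasi-likelihood) and DESeq2 1.42.0 were run on the recovered reads. For differences within a library, group means were compared by exact permutation (two-sided), adjusted over 24 tests. A gene was taken as at the floor at 3 reads or fewer, which covers counting error only. Genes of the lists were named where they were among the 3 largest rises or the 3 largest falls of a list past the test in either tumor-gland comparison, and the 5 genes most correlated with Cdh1, Zeb1 and Cdh2 were taken among genes with a mean of at least 50. Single-gene results of 2 genes that these rules name are not reported here. The fits were tested on simulated data.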

Additional observations from a re-analysis of the deposited data

Results flagged for a closer look

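In 7 of 56 groups of 4 values examined, 1 library lay farther from the others than Dixon's 95% criterion allows, and chance alone flags about 1 in 20 groups. The 56 groups share libraries and genes, so the 7 cannot be read as more than chance would give. 2 of the 7 came from MG-NP replicate 4, the lowest gland both for Cdh1, at 838.1 normalized counts, and for Epcam, at 1457.9. MG-N replicate 2 was the highest of its group for Zeb1, at 4142.1, and for Vim, at 25977.7. T-N replicate 3 was the highest of its group for Snai2, at 24.2. Within a library, T-NP replicate 4 was the highest of its group for Vim minus the fibroblast list, at 2.20 on the log2 scale, and MG-NP replicate 3 was the lowest for Zeb1 minus that list, at -2.18.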

How the results depend on the processing

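The number of the 10 genes called was the same with pseudocounts of 0.5 and 5, no filter on low values, TMM scaling and edgeR. The median difference over all genes moved by less than 0.1 on the log2 scale under TMM. With all 5 groups in 1 fit, 5 genes rather than 9 were called in MG-N against MG-WT, with Snai2, Twist1, Twist2 and Vim lost at the same differences. With the skeletal muscle score as a covariate, 0 rather than 7 were called in MG-NP against MG-WT and 6 rather than 8 in T-NP against MG-NP. The differences themselves did not vanish: against MG-WT those of Snai1, Snai2 and Vim grew to -2.97, -1.59 and 1.04, and those of Zeb1, Zeb2, Cdh1 and Epcam shrank to 0.49, 0.79, -1.42 and -0.90. With that covariate Grhl1 in MG-NP against MG-WT turned from lower to 0.63, which was not called. DESeq2 called 1 rather than 0 in MG-NP against MG-N. The causes of these shifts were not tested. Muscle sums of MG-NP overlap neither those of MG-WT nor those of T-NP, so the covariate fits separate score from group poorly. Leaving out 1 library gave 8 to 9 calls in MG-N and 6 to 7 in MG-NP against MG-WT, 7 in T-N against MG-N, 8 in T-NP against MG-NP, and 0 in MG-NP against MG-N, in T-NP against T-N and for the difference between genotypes. A filter at a mean of 50 left Twist2 out of T-NP against MG-NP, with 7 calls.

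The labels' replicate numbers were not used as pairs, since in no comparison did every same-numbered pair deviate together: with 4 pairs, at most 2 samples correlated best with their own number, and with 3 pairs 0 did. With the replicate number as a block the calls were 9 in MG-N and 6 in MG-NP against MG-WT, 7 in T-N against MG-N, 8 in T-NP against MG-NP, and 0 for the rest.

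Over all genes, 7 were called in T-NP against T-N, against 80 higher and 40 lower with DESeq2, 23 and 6 with all 5 groups in 1 fit, and 0 with edgeR, the block, a pseudocount of 0.5, a filter at a mean of 50, or T-NP replicates 1 and 2 averaged. The 0 in MG-NP against MG-N became 13 higher and 4 lower with all 5 groups in 1 fit. With the muscle covariate MG-NP had 709 genes above and 1080 below MG-WT (4268 and 4585 without it), and T-NP 2112 above and 2761 below MG-NP (4689 and 5240 without it). Requiring a 2-fold change left 3636 genes above and 3401 below MG-WT in MG-N (5697 and 5544 without it). Of 5426 values of single genes under an alternative, 5252 kept their side of the threshold without a called value turning, 154 lost the call, 19 gained it and 1 called value turned. Values that were called under neither setting changed sign in 234 cases. Values under about 10 normalized counts, as for Twist2 in tumors, rest on few reads.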
